A study of Mus musculus with 12 samples.

Results

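The comparison covers 6 RNA-seq libraries, 3 from Glra2 global knockout mice and 3 from wild-type mice, all infused with angiotensin II and injected intraperitoneally with saline. They were taken by their labels out of the 12 libraries of the series, whose remaining 6 come from the same genotypes given glycine at a labelled 800 mg/kg/day (80 for knockout glycine 5) in place of saline. The question of the comparison is what loss of the glycine receptor α2 subunit changes in angiotensin II-infused mice when no glycine is given. RNA is labelled as coming from aortic endothelial cells; the labels give no age, sex or strain and do not say whether the 3 libraries of a group are separate animals, so every p-value below measures the spread between libraries, which may be technical. Since the knockout is global, every cell type of the aorta lacks the gene, and since both groups received angiotensin II, no untreated baseline enters the comparison.

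Glycine receptors are chloride channels built from α subunits and the β subunit Glrb, best known for fast inhibition in the spinal cord and also present on leukocytes. Angiotensin II raises blood pressure and is known to draw monocytes and macrophages into the vessel wall, where fibroblasts of the adventitia and smooth muscle cells of the media lay down collagen and elastic fibres. Endothelial cells line the lumen, are held together by Cdh5 and Pecam1, and make nitric oxide through Nos3.

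No read was assigned to Glra2 (ENSMUSG00000018589) in any of the 6 saline libraries, wild type included, so the deleted gene's own level cannot check the genotype labels. Glrb had 69, 40 and 5 counts in wild type and 0, 0 and 63 in knockout, with overlapping groups. None of the 16 genes tested for glycine receptors, transport and cleavage passed the test in either direction, with a median log2 fold change of −0.18. The lowest p of that list belonged to Amt, a subunit of the glycine cleavage system, at 8.75, 11.3 and 12.9 CPM in wild type and 3.1, 4.53 and 4.6 in knockout (log2 fold change −1.43 ± 0.49 SE, adjusted p = 0.0793).

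The libraries held much RNA of cells other than endothelium. On the authors' length-scaled FPKM the endothelial genes Pecam1 and Cdh5 had medians of 33.1 and 6.47 in wild type and 25.5 and 1.81 in knockout. The fibroblast proteoglycan Dcn had medians of 4550 and 2200 FPKM, and the macrophage lysozyme Lyz2 had 1800 and 8660. The beta-globin gene Hbb-bs had 4510 and 12600 FPKM. Library totals were 16709613 to 18534256 counts in wild type and 17708384 to 24292383 in knockout, and mitochondrially encoded genes took 50, 64.7 and 52.1% of them in wild type and 50.4, 34.8 and 34.4% in knockout. Knockout libraries had 13969 to 14212 genes with a count against 13387 to 13676 in wild type. RNA of the Y-linked gene Ddx3y was present in every saline library, at 106.4, 122.1 and 108.5 CPM in wild type and 109, 76.5 and 115 in knockout. In bulk RNA, fewer cells of a type and less RNA per cell cannot be told apart, and the part that cell mixture plays in the results below was not tested.

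Knockout libraries carried more phagocyte, lysosome and immunoglobulin RNA, and less RNA of fibroblast, smooth muscle, matrix and endothelial genes. Of 13928 genes tested, 1573 (11.3%) passed an adjusted p of 0.05, 841 higher (6.04%) and 732 lower (5.26%) in knockout. Of these, 1223 differed at least 2-fold (656 higher, 567 lower) and 123 at least 8-fold (86 higher, 37 lower). The median log2 fold change was 1.43 among the higher, −1.32 among the lower and −0.02 over all genes tested. In 1546 of the 1573 genes the 3 knockout values did not overlap the 3 wild-type values, against 29.9% of all genes tested. Without knockout saline 2 the count was 1016, and 850 genes kept their call whichever saline library was left out; a gene said below to have risen or fallen is one of these unless its paragraph says otherwise. On the authors' FPKM (log2 with a pseudocount of 1, limma-trend) 76.9% of the calls were higher, 1194 against 358 lower, beside 53.5% on counts, and the median gene stood at 0.19, a shift against which the FPKM values have to be read; values below are from counts. No gene called on counts had the opposite sign on FPKM.

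**Figure D1:**
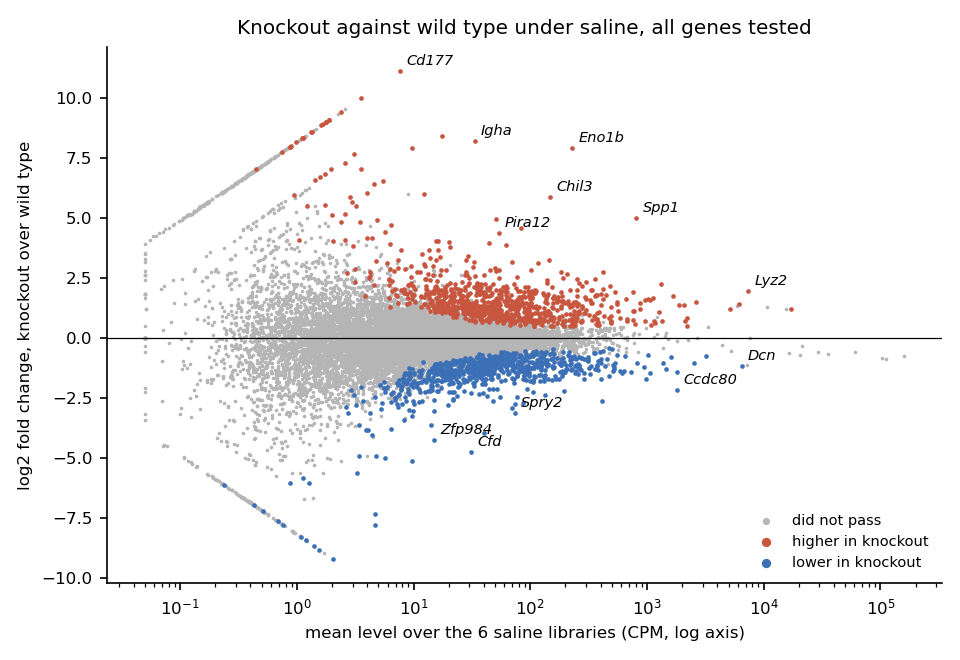
Each point is one gene, with its mean level over the 6 saline libraries in CPM, read counts scaled to a common library size (log axis) against its log2 fold change, knockout over wild type. The 841 genes that passed and were higher in knockout lie above the line and the 732 that were lower lie below it. The slanting edges at low levels are genes with 0 counts in one genotype.

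Several genes known from leukocytes had some of the smallest p-values. Igha, the constant region of immunoglobulin A, had 0.19, 0.464 and 0.0616 CPM in wild type and 56.4, 75.8 and 66.8 in knockout (log2 fold change 8.23 ± 0.37, adjusted p = 1.53e-08). Summed counts were 9 over the wild-type group and 3940 over the knockout group, and every knockout library was far above every wild-type library. Spp1, the secreted phosphoprotein osteopontin, rose from 38.8, 62.5 and 46.8 CPM to 1332, 820.3 and 2559 (4.99 ± 0.36, adjusted p = 1.11e-06). Chil3, a chitinase-like protein of mouse monocytes and macrophages, rose from 4.5, 2.51 and 7.51 to 156, 442 and 268 CPM (5.87 ± 0.42). For both genes the knockout libraries spread over a wide range, yet the lowest knockout value stood far above the highest wild-type value. Apobec1, a cytidine deaminase that edits messenger RNA, was tighter at 51.3, 68.8 and 46.9 against 351, 351 and 364 CPM (2.68 ± 0.17). The tetraspanin Cd53 of leukocytes rose from 148, 133 and 118 to 504, 524 and 560.3 CPM (1.99 ± 0.14, adjusted p = 1.04e-06).

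Among the largest rises were genes at or near 0 in wild type. Cd177, a neutrophil surface protein, had 0 counts in each wild-type library and 7.71, 21.6 and 16.9 CPM in knockout, at least 70.7-fold higher against a floor of 3 counts per library. Gpr82, an X-linked orphan receptor, had 0 counts in wild type and 4.95, 5.33 and 11.1 CPM in knockout, at least 32.7-fold higher. Largest rises, largest falls and smallest p-values were named only where the groups did not overlap. Presence of both genes in every knockout library follows from that rule. The TNF receptor family member Relt had 0, 2 and 1 counts in wild type and 249, 449 and 435 in knockout. Oasl1, an interferon-induced member of the oligoadenylate synthetase family, had 14 counts in wild-type saline 2, 0 in the other wild-type libraries and 17.1, 33.8 and 21.7 CPM in knockout. Fut4, a fucosyltransferase of myeloid cells, varied within the knockout group, with 136, 20 and 273 counts against 2, 0 and 0, and did not pass on FPKM. Tmem273, a membrane protein gene, had 7.84, 6.5 and 9.31 CPM in knockout and 5 counts over the wild-type group. Spint1, a protease inhibitor, lost its call when wild-type saline 1 (0.0588) or 3 was dropped.

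The largest falls were of mixed kind. Cfd, the complement factor adipsin made by fat cells, went from 75.3, 72.4 and 32.9 CPM to 3.92, 1.97 and 1.02 (log2 fold change −4.76 ± 0.42, adjusted p = 6.6e-06), a 27-fold drop. Ppp1r16b, a phosphatase regulatory subunit of endothelium, fell from 63.4, 59.1 and 103 to 6.26, 5.38 and 3.06 CPM (−3.95 ± 0.38, adjusted p = 1.51e-05). All knockout values of both genes lay far below the lowest wild-type value. C5ar2, a second receptor for complement C5a, had 12.1, 25.7 and 19 CPM against 0, 1.55 and 0.0393. Prdm16, a transcriptional regulator known from brown fat and arterial endothelium, had 8.31, 11.8 and 15.8 against 2.0, 0.16 and 0.471. Rab6b, a small GTPase of the Golgi, had 6.98, 14.6 and 6.34 CPM against 0, 0.906 and 0. Col18a1, whose collagen chain sits in vascular basement membranes, fell 14.1-fold. Necab1 (6.03, 7.71 and 14.2 CPM in wild type, 2 counts in the knockout group), Stbd1, Map7 and Arhgap20 were also among the largest falls but lost their calls when 1 library was left out. Necab1 did so when wild-type saline 3 was dropped (adjusted p = 0.0529), and Stbd1 for wild-type saline 1 (0.162) and knockout saline 1 and 3. Map7 did so for knockout saline 1 (0.0986), knockout saline 3 and wild-type saline 2 and 3, and Arhgap20 for knockout saline 2 (0.0616) and 3. Arhgap20 did not pass on FPKM.

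**Figure D2:**
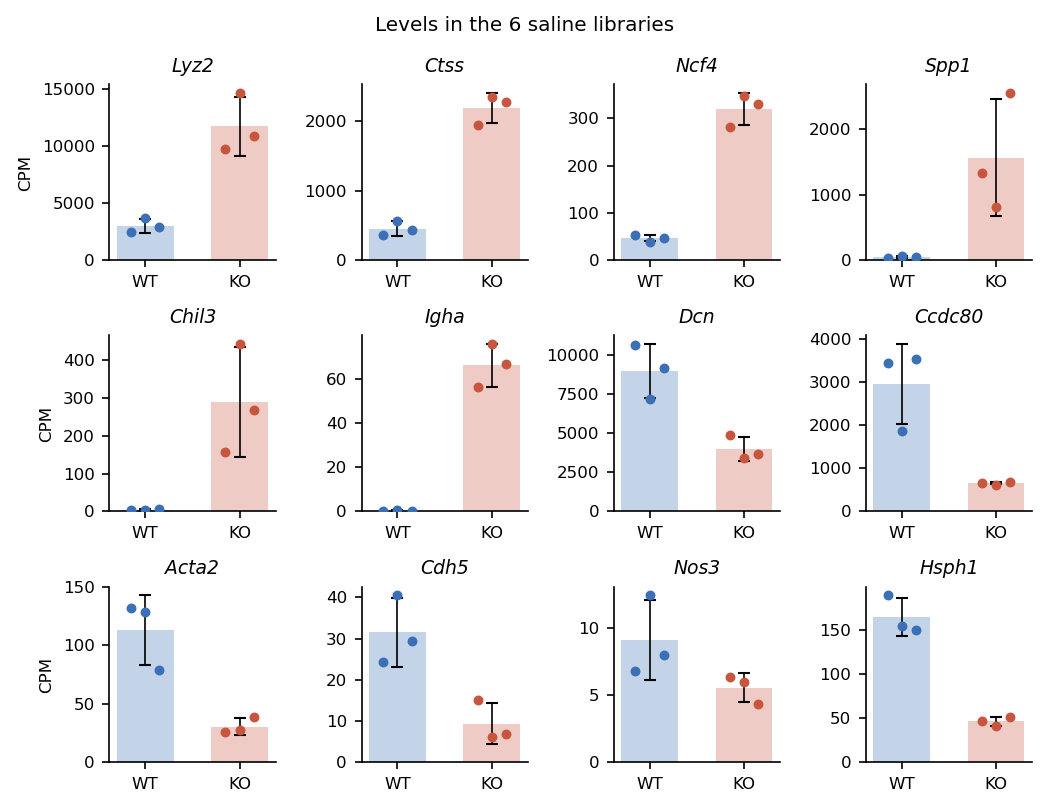
Levels of 12 genes in CPM, each panel with its own axis from 0. Points are libraries, bars the mean of 3 and whiskers the SD. Knockout points lie above all wild-type points for Lyz2, Ctss, Ncf4, Spp1, Chil3 and Igha and below them for the other 6 genes, of which Nos3 did not pass the test.

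Macrophage genes rose almost as a block. Of 22 listed members tested, 20 were higher in knockout and none lower, with a median log2 fold change of 1.64 against −0.02 over all genes; Folr2 (0.79) and Gpnmb (0.12) did not pass. Lyz2, the lysozyme of myeloid cells, had 2461, 3684 and 2956 CPM in wild type and 9750, 14680 and 10870 in knockout (log2 fold change 1.96 ± 0.18, adjusted p = 1.16e-05). Csf1r, the receptor that macrophages need to survive, rose from 115, 143 and 155 to 416, 488 and 464 CPM (1.73 ± 0.23). The IgG receptor Fcgr3 rose from 440.4, 596 and 454 to 1478, 1536 and 1605 CPM (1.63 ± 0.14). In each of these genes the lowest knockout library had more than the highest wild-type library by a wide margin. Trem2, a lipid-sensing receptor, rose 4.99-fold, the scavenger receptor Cd163 2.31-fold and the mannose receptor Mrc1 2.78-fold. Mertk, a receptor for apoptotic cells, was called but lost its call without knockout saline 3 (adjusted p = 0.0666) and without wild-type saline 1 or 3. The summed level of the list was 5412 to 8029 CPM in wild type and 19730 to 25110 in knockout, and 19 to 21 members were called whichever library was left out.

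Monocyte genes moved the same way. Of 14 monocyte and dendritic cell genes, 7 were higher and none lower (median 1.61). Ccr2, the receptor by which inflammatory monocytes follow CCL2, rose from 126, 218 and 140 to 526, 564 and 606 CPM (log2 fold change 1.81 ± 0.22, adjusted p = 0.000111). Cx3cr1, the fractalkine receptor of patrolling monocytes, rose 3.79-fold and Plac8, a monocyte gene, 4.18-fold. The dendritic cell genes Xcr1 (−0.77), Clec9a (−0.77) and Zbtb46 (−0.57) did not pass.

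Lysosomal genes rose with them. Of 31 tested, 22 were higher and none lower, with a median log2 fold change of 0.76. The cathepsins are the proteases of the lysosome, and 8 of 13 family members were higher. Ctss, which trims the invariant chain of MHC class II, rose from 365, 568 and 435 to 1938, 2337 and 2272 CPM (2.26 ± 0.16, adjusted p = 1.11e-06). Ctsd rose 3.41-fold, Ctsa 2.87-fold, Ctsc 2.86-fold and Ctsb 2.59-fold, and Lgmn, an asparaginyl endopeptidase, rose 3.01-fold. Psap, the precursor of the saposins, rose from 1042 to 2716 CPM. Of 18 vacuolar ATPase subunits, which acidify the lysosome, 3 were higher and none lower, beside 6.04% and 5.26% of all genes tested. On FPKM 5 were higher.

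All 6 subunits of the phagocyte NADPH oxidase rose, in every alternative tried. The family was assembled after the values had been seen, so this count is a description only. The oxidase makes the superoxide of the respiratory burst. The membrane subunit Cybb rose from 128, 208 and 198 to 558, 732 and 609.8 CPM (log2 fold change 1.83 ± 0.19) and its partner Cyba from 199.7, 295 and 229 to 479, 552 and 464 (1.05 ± 0.16). The cytosolic subunit Ncf4 rose from 53.2, 39.8 and 47.6 to 281, 346 and 329.9 (2.77 ± 0.17, adjusted p = 3.63e-07). Ncf1 and the GTPase Rac2 rose 4.19- and 3.9-fold. Nox4, the oxidase subunit of vascular wall cells, was at 22.1 ± 9.83 CPM in wild type and 13.3 ± 8.93 in knockout and did not pass (adjusted p = 0.349). Among antioxidant genes Gpx1, a glutathione peroxidase, and Hmox1, the haem-degrading oxygenase, rose 2.43- and 3.4-fold, and the extracellular superoxide dismutase Sod3 fell from 525, 406 and 417 to 185, 189.7 and 196 CPM (−1.24 ± 0.17). The antioxidant response letters TGACNNNGC were in 5 of 18 antioxidant genes with a promoter window, none of them called. Of all genes with a window, 13.99% held them.

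Families of myeloid surface receptors were assembled after the values had been seen, so their counts of called genes are a description only. Toll-like receptors sense microbial products, and 7 of 12 were higher with none lower. Tlr3 had less in each knockout library but did not pass (−1.55, adjusted p = 0.231). The RNA-sensing Tlr13 rose from 22.2, 30 and 22.9 to 123, 190.3 and 225 CPM (log2 fold change 2.84 ± 0.30) and the lipopeptide receptor Tlr2 from 43.3, 32.7 and 40.2 to 111, 189 and 160.3 (1.99 ± 0.22). Of 17 paired, leukocyte and signal-regulatory immunoglobulin-like receptors, which tune myeloid activation, 13 were higher and none lower. Pira12 led them, from 6.79, 5.02 and 2.95 to 93.5, 112 and 100.2 CPM (4.37 ± 0.29, adjusted p = 7.32e-07), but these genes are near-copies of each other and reads could be split between them. Of 12 MS4A membrane proteins, 7 were higher, among them Ms4a6b (97.4, 119.9 and 110 against 674, 505 and 649 CPM), Ms4a6d (6.86-fold) and Ms4a4a (9.47-fold), while the B cell member Ms4a1 was at 0.50 and did not pass. Of 24 C-type lectins, 10 were higher and 3 lower. Clec4e, which binds mycobacterial glycolipid, rose 9.11-fold; the 3 that fell are known from other cells, namely the bone marrow growth factor Clec11a, the fibroblast gene Clec3b and the endothelial gene Clec14a, the last of which did not pass on FPKM.

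Chemokine genes changed in both directions. Of 31 ligands, 7 were higher and 3 lower, and of 19 receptors 4 were higher and 2 lower. The ligand family was assembled after the values had been seen, so its count is a description only. Ccl6, Ccl9 and Ccl8, which attract monocytes, rose 3.81-, 5.49- and 2.74-fold. Cxcl13, which attracts B cells and is known from stromal cells, rose 2.62-fold. Ccl9 went from 69, 118 and 44.7 to 393, 479.9 and 395 CPM. Ccl19 and Ccl21a, ligands of Ccr7 made by stromal and lymphatic cells, fell from 179, 169 and 147 to 65.5, 39.9 and 56.2 and from 137, 198 and 190.5 to 69.6, 77.7 and 64.3 CPM; Ccl21a has near-identical copies in the mouse genome, so its reads are uncertain. Ccl2 (0.32), Ccl7 (0.12) and Ccl5 (0.01) did not pass. The atypical receptors Ackr3 and Ackr4, which take up chemokines without signalling through G proteins, fell 2.38- and 9.44-fold.

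Complement genes went both ways, with 9 of 18 higher and 7 lower. The C1q chains, made by macrophages, rose: C1qa went from 109, 182 and 141 to 473, 451 and 433 CPM (log2 fold change 1.65 ± 0.19). Cfp, properdin of leukocytes, rose from 99.2, 96.3 and 68.1 to 391, 448 and 463 CPM (2.30 ± 0.19, adjusted p = 4.3e-06). The receptor chains Itgam and Itgb2 rose 5.9- and 5.74-fold, and C3ar1 3.29-fold. Those that fell are made mostly by stromal cells or fat or protect host cells, with Cd55, a membrane inhibitor of complement, falling from 114, 113 and 194 to 56.9, 52.9 and 39.6 CPM (−1.49 ± 0.24). On FPKM 2 of the 7 lower members passed, and 3 without wild-type saline 1 or without knockout saline 2.

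Most neutrophil genes rose, from a low summed level. Of 14 tested, 9 were higher and none lower, with a median log2 fold change of 2.2, and 6 without knockout saline 3. Camp, the cathelicidin of granules, had 0 counts in wild type and 4.88, 5.12 and 4.32 CPM in knockout, at least 21.9-fold higher. Cxcr2, the receptor that guides neutrophils, rose from 8.5, 6.87 and 5.42 to 25.2, 39.7 and 30.7 CPM, 4.59-fold. Ngp, a granule protein, rose 10.8-fold. Retnlg (1.07), Lcn2 (0.89), the neutrophil marker Ly6g (−1.28), and Elane and Mpo, both at 0 CPM in wild type, did not pass. The summed level was 138.7 to 345.5 CPM in wild type and 651.7 to 877.1 in knockout, a small share of that of macrophage genes.

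Immunoglobulin constant regions were higher in 8 of 13, and none was lower (median 1.74). Beside Igha, the IgG2c chain Ighg2c rose from 2.03, 4.83 and 1.54 to 26.6, 44.5 and 43.3 CPM (log2 fold change 3.81 ± 0.49), Igkc from 106, 117 and 125 to 302, 451 and 407 (1.74 ± 0.25) and Ighm from 155, 219 and 179.8 to 408, 436 and 387 (1.15 ± 0.17). Jchain, which joins secreted IgA and IgM, rose from 8.69, 15.6 and 14.6 to 66, 96 and 107 (2.79 ± 0.31, adjusted p = 4.56e-05). The calls of Ighg1 and Ighg2b were lost when wild-type saline 1 was dropped (adjusted p = 0.0539 and 0.0659), that of Ighg2b also for knockout saline 2, and that of Iglc2 for knockout saline 2 (0.0921) or wild-type saline 3; Ighg3 (1.78), Ighd, Ighe, Iglc1 and Iglc3 did not pass. Of 120 variable, diversity and joining segments tested, 9 were higher and 2 lower, beside 6.04% and 5.26% of all genes tested. Some of these segments, among them Ighv1-63, were at 0 CPM in both saline groups. In the list of 15 B cell and plasma cell genes, the 4 that passed were Jchain, Igkc, Ighm and Iglc2.

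T and NK cell genes gave 1 call in 20, beside 11.3% of all genes tested. It was Il7r, which did not pass on FPKM or when wild-type saline 2 or 3 or knockout saline 2 or 3 (adjusted p = 0.187) was dropped. The summed levels of the list overlapped at 61.1 to 124.1 CPM in wild type and 72.9 to 143.3 in knockout. Of 16 erythroid and platelet genes 3 were higher, beside 6.04% of all genes tested, and 6 without wild-type saline 2. Their summed level was 12130 to 28640 CPM in wild type and 37280 to 64930 in knockout, higher in every knockout library, and the part of blood in the leukocyte results was not tested. Pf4, a platelet chemokine also made by macrophages, rose 1.77-fold, while Hbb-bt and Alas2 lost their calls without knockout saline 2 (adjusted p = 0.168 and 0.156), and also without knockout saline 3 or wild-type saline 1 or 3.

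**Figure D3:**
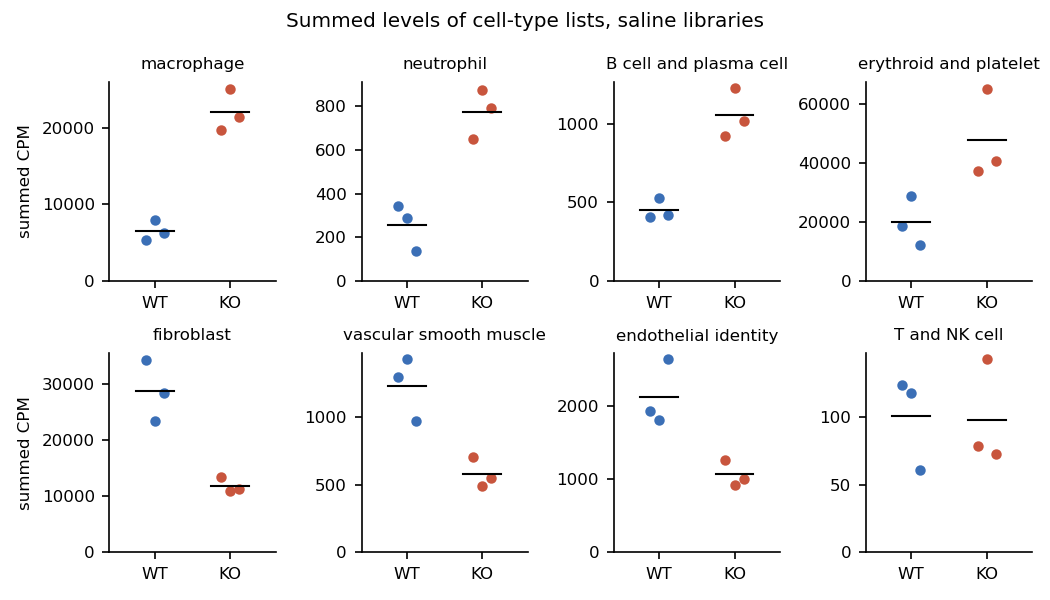
Summed CPM of 8 cell-type gene lists in each saline library, with a line at the mean of 3 and axes from 0. The groups are separate for every list but T and NK cell, with knockout above wild type in the upper row and below it for the fibroblast, smooth muscle and endothelial lists.

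Endothelial genes fell in part. Of 29 endothelial identity genes, 8 were lower and none higher, with a median log2 fold change of −0.86; on FPKM 4 passed, and 5 without knockout saline 2 or without knockout saline 3. Tek, the angiopoietin receptor, fell from 157, 94.9 and 185 to 69.8, 31.7 and 46.2 CPM (log2 fold change −1.57 ± 0.30, adjusted p = 0.00283). Kdr, the main VEGF receptor, fell from 88.2, 97.5 and 158 to 58.5, 28.9 and 36.2 (−1.48 ± 0.29), and Cd34, a sialomucin shared with fibroblasts, from 783, 483 and 929.7 to 346, 287 and 271 (−1.28 ± 0.20). Wild-type saline 3 was highest and the groups did not overlap in all 3 genes. Cdh5, VE-cadherin, went from 24.4, 40.6 and 29.5 to 15.2, 6.13 and 6.92 CPM (−1.74 ± 0.44, adjusted p = 0.0168), a call lost without knockout saline 2 (0.0865), knockout saline 3 or wild-type saline 2. Pecam1 was lower in each knockout library, at 115, 134 and 161 against 84.2, 82 and 101 CPM, but did not pass (−0.62 ± 0.21, adjusted p = 0.0756). Angpt2, the antagonist ligand of Tek, and the Notch ligand Jag1 fell 3.5- and 2.5-fold. Over the endothelial list the summed level was 1800 to 2631 CPM in wild type and 922.9 to 1262 in knockout.

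Nos3, which the study's title places downstream of the receptor, did not pass. It had 6.79, 12.4 and 8.0 CPM in wild type and 6.33, 5.97 and 4.32 in knockout, 9.08 ± 2.98 CPM in wild type and 5.54 ± 1.07 in knockout (SD, n = 3 each), with a log2 fold change of −0.71 ± 0.69 SE (adjusted p = 0.619). All 3 knockout values lay below the lowest wild-type value by a small margin. Of 28 genes for nitric oxide synthesis and signalling, 2 were higher and 3 lower, beside 6.04% and 5.26% of all genes tested. The lower ones were Cav2, Cav1 and Ddah2 (−0.84 ± 0.26, adjusted p = 0.0477). The higher ones were Arg1 and Pts, an enzyme of tetrahydrobiopterin synthesis, and Pts lost its call whichever library was dropped (highest adjusted p = 0.132, knockout saline 3). None of the list was lower without wild-type saline 3 or without knockout saline 2, and 1 was lower without knockout saline 3 and on FPKM. Arg1, arginase, which uses the same substrate as Nos3 and is abundant in mouse macrophages, rose from 5.84, 2.14 and 1.48 to 34.3, 178 and 86.4 CPM (4.97 ± 0.71, adjusted p = 0.000327). The caveolin Cav2 went from 178, 258 and 439.8 to 144, 98.4 and 119.8 CPM (−1.28 ± 0.30) and Cav1 from 212, 285 and 380.5 to 178, 136 and 165 (−0.88 ± 0.23); both lost the call without wild-type saline 3 (adjusted p = 0.0784 and 0.13) or knockout saline 2, and Cav1 also without knockout saline 3. Cav1 did not pass on FPKM.

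Endothelin receptors moved apart. Ednra, the receptor of smooth muscle and fibroblasts that constricts vessels, fell from 34.1, 14.8 and 30.1 to 5.37, 5.76 and 6.21 CPM (log2 fold change −2.19 ± 0.36, adjusted p = 0.000915). Ednrb, which on endothelium promotes dilation, rose from 25.5, 22 and 53.6 to 149, 109 and 134 CPM (1.95 ± 0.29, adjusted p = 0.000423). The converting enzyme Ece1 fell 2.06-fold. For these 3 genes the groups did not overlap. Of 17 endothelin and renin-angiotensin genes tested, 1 was higher and 3 lower, beside 6.04% and 5.26% of all genes tested. On FPKM 2 were higher. The remaining lower gene, the mast cell chymase Cma1 (adjusted p = 0.0494), did not pass on FPKM or when any saline library but wild-type saline 3 was dropped (highest 0.188, knockout saline 2). Of 10 lymphatic endothelial genes 5 were lower (2 on FPKM and without knockout saline 3, and 3 without wild-type saline 1 or 3 or knockout saline 1 or 2), led by Pdpn, podoplanin, which is also made by fibroblasts (154, 88.2 and 130.2 against 16.6, 17.1 and 15.5 CPM, −2.92 ± 0.22, adjusted p = 1.86e-06). In the same lymphatic list Lyve1 was higher in each knockout library but did not pass (0.59, adjusted p = 0.139). Prox1 did not pass either (−0.72, adjusted p = 0.786). Klf4, a shear-induced transcription factor, and Thbd, the endothelial thrombomodulin, fell 2.35- and 1.99-fold, Thbd not passing on FPKM.

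Smooth muscle genes were lower in 8 of 20 and higher in none, with a median log2 fold change of −1.44. Acta2, smooth muscle actin, fell from 132, 129 and 78.8 to 26, 27.2 and 38.6 CPM (log2 fold change −1.88 ± 0.22, adjusted p = 7.94e-05), and the actin-binding Tagln from 44.6, 34.8 and 23.8 to 7.16, 8.69 and 12.1 (−1.88 ± 0.32). The myosin light chain Myl9 fell 3.0-fold and the pericyte signalling regulator Rgs5 2.55-fold. Myh11, the smooth muscle myosin heavy chain, fell 5.1-fold on counts and did not pass on FPKM. The summed level was 971 to 1429 CPM in wild type and 489.9 to 703.6 in knockout.

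Most fibroblast genes fell. Of 20 tested, 16 were lower and none higher, with a median log2 fold change of −1.38. Ccdc80, a secreted matrix protein, fell from 3448, 1872 and 3527 to 665, 623 and 671 CPM (log2 fold change −2.18 ± 0.21, adjusted p = 1.4e-05). Dcn, decorin, fell from 10620, 7177 and 9130 to 4888, 3385 and 3693 CPM (−1.17 ± 0.18), and Serpinf1, pigment epithelium-derived factor, from 1285, 1026 and 851 to 383, 372 and 424 (−1.42 ± 0.16). The 3 knockout libraries were below all wild-type libraries in each of these genes, and close to each other for Ccdc80 and Serpinf1. The summed level was 23390 to 34320 CPM in wild type and 10860 to 13410 in knockout. Of 14 small leucine-rich proteoglycans, which space collagen fibrils, 9 were lower and none higher, in each leave-one-out fit too, led by Omd (5.4-fold) and Fmod (192, 186 and 81.9 against 32.3, 36.7 and 35.7 CPM).

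Collagen genes were lower in 14 of 19 and higher in none (median −1.24). Col1a1, the main fibrillar chain, fell from 1738, 1861 and 886 to 382, 404 and 607 CPM (log2 fold change −1.69 ± 0.27, adjusted p = 0.000783), with wild-type saline 3 well under the other wild-type libraries. Col3a1 fell 2.07-fold and Col14a1 2.82-fold. Of the laminin and basement-membrane genes, which include chains of the collagen list, 13 of 23 were lower and none higher. Col4a3, a chain of specialised basement membranes, fell from 132, 101 and 216 to 23.5, 21.3 and 24.4 CPM (−2.70 ± 0.27), Col4a2 from 64.3, 62.1 and 52 to 21.3, 22.8 and 23.5 (−1.40 ± 0.20) and Lamc1, a laminin γ chain, 2.49-fold. On FPKM 10 collagen and 7 basement-membrane genes passed, and 8 of the latter without knockout saline 3.

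Elastic-fibre, crosslinking and matricellular genes were lower in 15 of 27 and higher in 2 (9 lower on FPKM). Eln, elastin, fell from 158, 184 and 78.3 to 32.8, 33.4 and 58.6 CPM (log2 fold change −1.75 ± 0.31), the cartilage intermediate layer protein Cilp from 69.3, 44 and 67.2 to 11.2, 12.8 and 11.6 (−2.34 ± 0.25, adjusted p = 3.19e-05) and Postn, periostin, from 327, 200.1 and 273 to 107, 87.4 and 119 (−1.35 ± 0.19). Ccn2, a matricellular target of TGF-β and mechanical load, fell 2.94-fold. The 2 that were higher were Spp1 and Thbs1, thrombospondin 1, of which Thbs1 lost its call without knockout saline 2 (adjusted p = 0.253) or wild-type saline 2 or 3. Among proteases, the gelatinase Mmp2 of stroma fell from 608, 296 and 519 to 163, 190.4 and 157 CPM (−1.48 ± 0.22), and Mmp8, the neutrophil collagenase, rose from 15.7, 6.97 and 9.85 to 73.6, 86.7 and 76.3 (2.86 ± 0.50). Spry2, an inhibitor of receptor tyrosine kinase signalling, fell from 133, 104 and 159.7 to 19.6, 13.4 and 12.7 CPM (−3.12 ± 0.31).

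**Figure D4:**
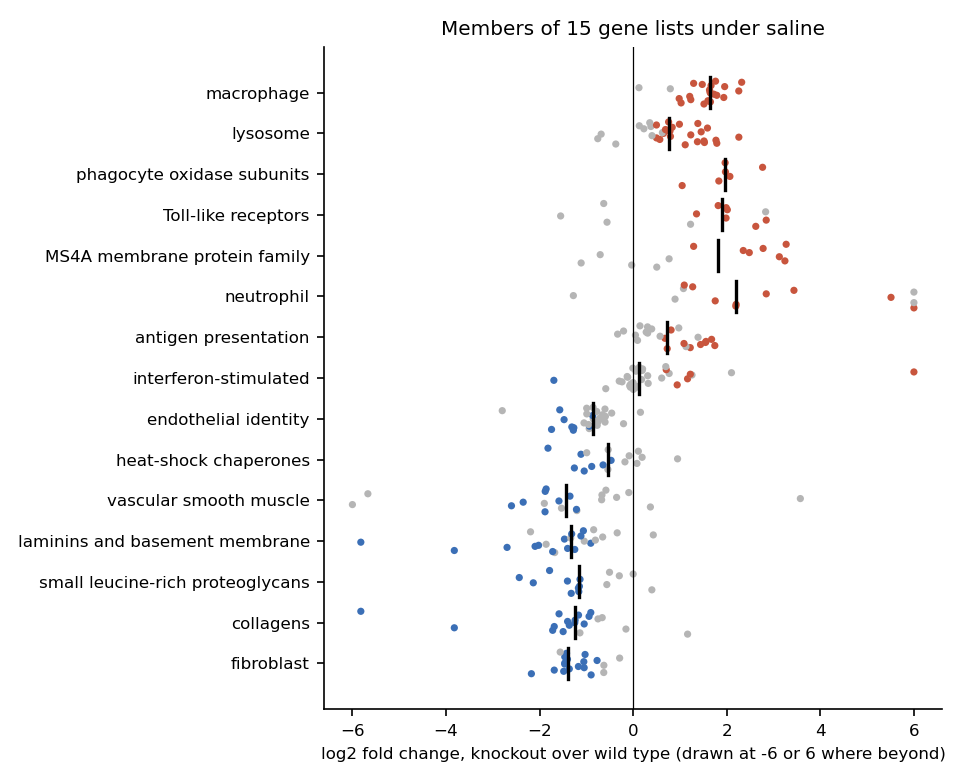
Log2 fold change, knockout over wild type under saline, of each tested member of 15 gene lists, with black bars at the list medians. Red and blue points passed the test as higher and lower, grey points did not, and values beyond 6 are drawn at the edge. Phagocyte lists lie to the right of 0, with 20 of 22 macrophage genes red, and matrix lists to the left, with 16 of 20 fibroblast genes blue.

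Inflammatory mediators rose in part. Of 23 adhesion and NF-kB genes, 9 were higher and none lower, with a median log2 fold change of 0.57. Il1b, interleukin-1β, rose from 91.2, 63.7 and 33.9 to 144, 312 and 211 CPM (log2 fold change 1.82 ± 0.31), Tnf from 4.69, 1.49 and 1.97 to 18.1, 18.9 and 29.7 (3.02 ± 0.49) and the neutrophil-attracting chemokine Cxcl2 from 65.4, 62.6 and 13.7 to 149, 298 and 244 (2.29 ± 0.42). Il1b in knockout saline 1 was less than 2-fold above wild-type saline 1, whereas Tnf was at least 18.1 CPM in all knockout libraries. Nfkbia, the NF-kB inhibitor that NF-kB itself induces, rose 2.17-fold. The endothelial adhesion genes Vcam1 (0.00), Icam1 (−0.04) and Selp (−0.21) did not pass. Selplg, the leukocyte ligand of the selectins, rose 3.65-fold.

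The letters GGNNTTTCC, a form of the NF-kB site, were searched on both strands of RefSeq promoter windows (250 bases before to 50 after the gene start, build GRCm38.p6). They were in 10 of the 17 genes of this list that have a window, against 6.62% of all 27025 genes with a window. Of the 17, 3 of 8 higher genes and 7 of 9 that did not pass held them. A match is a description of letters and not of binding. The 250 bases before the start of Cxcl2 (chr5:90903649-90903898, plus strand) and of Nfkbia (chr12:55492648-55492897, minus strand), called genes that hold the letters, are shown with the matches in capitals.
Cxcl2: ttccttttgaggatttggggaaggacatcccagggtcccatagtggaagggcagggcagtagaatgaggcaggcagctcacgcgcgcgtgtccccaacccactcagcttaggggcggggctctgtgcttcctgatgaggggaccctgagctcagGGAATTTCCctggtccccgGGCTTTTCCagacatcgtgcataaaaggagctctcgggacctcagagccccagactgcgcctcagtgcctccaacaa
Nfkbia: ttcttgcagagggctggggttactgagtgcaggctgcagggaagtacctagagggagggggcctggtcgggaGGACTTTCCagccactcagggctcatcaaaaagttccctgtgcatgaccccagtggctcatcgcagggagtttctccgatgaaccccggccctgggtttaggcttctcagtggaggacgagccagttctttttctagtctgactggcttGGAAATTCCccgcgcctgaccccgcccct
In Cxcl2 the matches begin 96 and 77 bases before the start, and in Nfkbia 178 and 29 bases before it.

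Interferon-stimulated genes moved less. Of 31 tested, 5 were higher and 1 lower, with a median log2 fold change of 0.13, and 3 were higher without wild-type saline 1, knockout saline 2 or knockout saline 3. Oas1a, which makes the second messenger 2′-5′-oligoadenylate, rose from 29.4, 30.8 and 25.8 to 63.7, 67.3 and 69.2 CPM (log2 fold change 1.22 ± 0.18, adjusted p = 0.000364). Iigp1, an interferon-γ-induced GTPase, fell from 129, 116 and 154 to 50.6, 34.5 and 38.1 CPM (−1.69 ± 0.20, adjusted p = 8.38e-05), and of 18 interferon-inducible GTPases 5 were lower (3 on FPKM) and 1, Ifi47, higher (1.92-fold). Some of these GTPases are near-copies whose reads may be shared. Irf7, a transcription factor of the interferon response, was called as higher but lost its call when any single saline library but wild-type saline 3 was dropped, with a highest adjusted p of 0.161 for knockout saline 2. The letters GAAANNGAA, the core of the interferon-stimulated response element, were in 16 of 25 listed genes with a window. Of all genes with a window, 9.76% held them. The STAT letters TTCNNNGAA were in 7 of the 25, against 9.55%. Of the 4 higher genes with a window, Oas1a held GAAANNGAA, as overlapping matches that begin 20 and 14 bases before its start (chr5:120907526-120907775, minus strand).
Oas1a: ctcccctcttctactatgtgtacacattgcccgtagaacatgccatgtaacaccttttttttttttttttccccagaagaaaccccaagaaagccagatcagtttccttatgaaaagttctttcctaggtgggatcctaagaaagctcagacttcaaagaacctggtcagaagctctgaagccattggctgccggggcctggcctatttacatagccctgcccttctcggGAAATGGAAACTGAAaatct

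MHC class II genes rose. Of 23 antigen presentation genes, 10 were higher and none lower (median 0.73). H2-Aa, a class II α chain, rose from 611, 947 and 759 to 2867, 2569 and 2328 CPM (log2 fold change 1.74 ± 0.16, adjusted p = 1.12e-05), and H2-Ab1 from 2440, 3991 and 3506 to 10300, 8446 and 8216 (1.44 ± 0.18). H2-DMb1, which helps load peptides, rose 2.94-fold. Each had non-overlapping groups, with wild-type saline 2 the highest wild-type library.

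Heat-shock chaperones were lower in 7 of 16 and higher in none, with a median log2 fold change of −0.54; on FPKM 3 were lower and 1 higher. Hsph1, a nucleotide exchange factor for HSP70, fell from 189.5, 154 and 149 to 46.9, 41.2 and 51.5 CPM (log2 fold change −1.82 ± 0.21, adjusted p = 7.64e-05). The small heat-shock proteins Cryab and Hspb1 fell from 143, 158 and 141 to 71.6, 50.2 and 63.4 (−1.26 ± 0.19) and from 38.2, 50.8 and 42.5 to 22.3, 16.7 and 21.6 (−1.12 ± 0.23). Knockout libraries were below every wild-type library in all 3. The co-chaperone Dnaja1 went from 165, 209 and 214 to 98.6, 93.2 and 126 (−0.89 ± 0.18) and did not pass on FPKM. The inducible HSP70 genes Hspa1a (0.95) and Hspa1b (0.19), near-identical copies, and Hspa8 (−0.09) did not pass. The letters GAANNTTC of the heat-shock element read the same on both strands. They were in 10 of 11 listed genes with a window (4 of 5 lower, 6 of 6 that did not pass). Of all genes with a window, 9.04% held them. Of the lower genes, Hspb1 (chr5:135887669-135887918, plus strand) and Dnaja1 (chr4:40722218-40722467, plus strand) held them before the start.
Hspb1: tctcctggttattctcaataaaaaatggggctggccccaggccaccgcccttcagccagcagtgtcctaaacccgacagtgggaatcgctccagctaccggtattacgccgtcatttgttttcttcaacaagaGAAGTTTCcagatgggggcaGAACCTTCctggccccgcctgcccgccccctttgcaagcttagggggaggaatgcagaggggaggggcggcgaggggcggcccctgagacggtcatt
Dnaja1: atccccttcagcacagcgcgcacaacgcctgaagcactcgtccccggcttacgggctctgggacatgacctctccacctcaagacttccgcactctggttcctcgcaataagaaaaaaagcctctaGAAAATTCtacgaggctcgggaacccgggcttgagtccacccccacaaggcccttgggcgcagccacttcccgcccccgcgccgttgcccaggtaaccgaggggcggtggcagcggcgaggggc
The capitals begin 117 and 97 bases before the Hspb1 start and 124 bases before that of Dnaja1.

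Immediate-early genes were higher in 6 of 20 and lower in none (3 higher without knockout saline 2 or without wild-type saline 3). Ier3, an apoptosis regulator, rose from 21.6, 23.5 and 8.8 to 52.4, 86.3 and 74.1 CPM (log2 fold change 1.99 ± 0.32), Zfp36, which destabilises cytokine messenger RNA, from 106, 108 and 35.8 to 165, 312 and 286 (1.62 ± 0.37) and Atf3 2.44-fold. Fos (0.89), Egr1 (0.42) and Jun (0.40) did not pass. Tissue handling can induce genes of this list, and its part in these values was not tested. The AP-1 letters TGACTCA were in 0 of the 15 listed genes with a window, against 5.95% of all genes with a window. The cAMP response letters TGACGTCA were in 2 of the 15, both higher, against 2.03%.

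Clock genes were lower in 5 of 19 and higher in 1 (2 lower on FPKM). Bhlhe41, a repressor of clock transcription, fell from 118, 88.7 and 177 to 8.6, 24.7 and 23.4 CPM (log2 fold change −2.75 ± 0.36, adjusted p = 0.000174), the receptor Rora from 75.5, 51.1 and 44.7 to 21.9, 14.8 and 18.3 (−1.64 ± 0.25) and Per3 from 30.6, 22.9 and 38.5 to 7.29, 9.81 and 11.1 (−1.70 ± 0.31). Bmal1, the activating partner of CLOCK, fell 2.18-fold; Per3 and Bmal1 did not pass on FPKM. Dbp was called lower but did not pass on FPKM or without wild-type saline 3 (adjusted p = 0.16), knockout saline 1 or knockout saline 2, and Nfil3, the member that was higher, without knockout saline 2 (0.0563). Per1 (−0.25), Per2 (−0.06) and Nr1d1 (0.65) did not pass. The time of day of sampling is not in the labels. The E-box letters CACGTG were in 5 of 15 listed genes with a window (1 of 4 lower, 4 of 10 that did not pass). Of all genes with a window, 8.09% held them. The ROR element GTAGGTCA was in 1 of the 15, the higher gene Nfil3, against 0.71%. The D-box letters TTATGTAA or TTACATAA were in 1 of the 15, Per3, against 1.11%. The 250 bases before the Per3 start (chr4:151044666-151044915, minus strand) are shown with the matches, beginning 205 and 158 bases before the start, in capitals.
Per3: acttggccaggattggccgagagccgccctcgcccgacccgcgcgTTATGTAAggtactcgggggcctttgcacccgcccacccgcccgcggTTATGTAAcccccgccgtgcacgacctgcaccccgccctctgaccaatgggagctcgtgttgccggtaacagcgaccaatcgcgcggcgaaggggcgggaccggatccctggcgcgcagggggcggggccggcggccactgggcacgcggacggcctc

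None of 13 mitochondrially encoded genes passed (median −0.64). Of 28 nuclear respiratory chain genes 1 was higher and 1 lower, beside 6.04% and 5.26% of all genes tested. The higher one, Atp5f1a of the ATP synthase, lost its call without knockout saline 2 (adjusted p = 0.141), knockout saline 3 or wild-type saline 1 or 3, and on FPKM 4 were higher. Glycolysis and hypoxia genes were higher in 6 of 23 and lower in 1 (3 higher without knockout saline 3, 10 on FPKM), with Pkm, pyruvate kinase, at 185, 208 and 169 against 317, 451 and 392 CPM (log2 fold change 1.04 ± 0.17). Ucp2, a mitochondrial carrier abundant in leukocytes, rose 2.9-fold. It was the called member of 19 fatty acid genes, beside 11.3% of all genes tested. Of 20 cholesterol genes 2 were lower, beside 5.26% of all genes tested, namely Sc5d of sterol synthesis and the sterol sensor Insig1. Neither passed on FPKM. Insig1 lost its call whichever library was dropped (highest adjusted p = 0.181, knockout saline 2), and Sc5d did so for knockout saline 2 (0.159), knockout saline 1 and wild-type saline 1 and 3. No proliferation gene of 20 passed. Of 14 adipocyte genes 4 were lower and 1 higher (2 lower without knockout saline 2 or wild-type saline 2 or 3). Car3, a carbonic anhydrase of fat, fell from 167, 122 and 114 to 31.6, 45.4 and 46.2 CPM (−1.71 ± 0.22). The higher gene, Pnpla2, rose 4.14-fold (adjusted p = 0.00386). Adipoq (−0.94), Plin1 (−1.95), Lipe (0.87) and Pparg (0.06) did not pass.

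In a few genes the libraries of one genotype lay far from those of the other under both treatments. Eno1b, an intronless near-identical copy of the enolase gene Eno1, had 1.52, 0 and 3.75 CPM in wild type and 400.1, 498 and 465 in knockout (log2 fold change 7.91 ± 0.58, adjusted p = 1.18e-06). Reads may be shared between the copies, and their sum was 280.0 ± 22.7 CPM in wild type and 702.6 ± 81.7 in knockout (SD, n = 3 each). Ifi202b, an interferon-inducible gene known to differ between mouse strains, had 4 counts over the wild-type group and 33.9, 25.1 and 46.8 CPM in knockout. Cap1, which recycles actin, had 6.98, 7.89 and 8.86 CPM in wild type and 113, 127 and 109.8 in knockout (3.88 ± 0.25, adjusted p = 5.84e-07). Under glycine their log2 fold changes were 8.87, 6.51 and 4.11. The zinc-finger gene Zfp984, a member of a cluster of similar genes whose reads may be shared, went the other way, from 31, 30.8 and 24.3 to 1.24, 2.83 and 0.471 CPM (−4.26 ± 0.64; −3.98 under glycine). Strain background is not in the labels and cannot be told apart from genotype in these groups.

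Of the 20 measured genes nearest Glra2 on the X chromosome, 10 on each side, 4 passed. Vegfd, a lymphatic growth factor, went from 29, 23.7 and 26.4 to 11.8, 7.3 and 7.66 CPM (log2 fold change −1.56 ± 0.30, adjusted p = 0.00283) and the membrane glycoprotein Gpm6b from 168, 112 and 278 to 76.2, 58.6 and 56.5 (−1.54 ± 0.29). Tlr7 and Tlr8, receptors for single-stranded RNA, rose from 25.1, 29.5 and 12.2 to 75, 73.5 and 116 (1.99 ± 0.33) and from 16.8, 13.6 and 8.86 to 47.8, 44.1 and 46.1 (1.82 ± 0.37). Over the whole X chromosome 51 of 459 genes passed, 11.1%, and the autosomes ranged from 8.92 to 14.1%.

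Under glycine the same genotypes differed in fewer genes. There 357 genes passed (2.56%), 209 higher and 148 lower, in 6 libraries that share none with the saline comparison. Of the 841 genes higher under saline 110 were also higher under glycine, which is 13.1% of the saline and 52.6% of the glycine list, and of the 732 lower genes 113 were also lower, 15.4% and 76.4%. In 7 genes the calls were opposite. The genes higher under saline had a median log2 fold change of 0.38 under glycine, and those lower −0.62. Macrophage genes were called higher in 20 of 22 under saline and 1 of 22 under glycine, while interferon-stimulated genes were called higher in 5 and 21 of 31.

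The difference between the differences was tested in the same fit. It passed in 156 genes (1.12%), and 136 of the 156 were also called under saline. The saline difference is part of this test, so that overlap is partly built in. The log2 fold change, knockout over wild type, was above its glycine value under saline in 118 genes and below it in 38. The count was 338 without wild-type glycine 4, which had the fewest genes with a count (12945), and 78, 76, 71, 60, 80, 76 and 75 without wild-type glycine 5 and 6, knockout saline 2 and 3 and knockout glycine 4, 5 and 6. Lyz2 differed by 1.96 ± 0.18 under saline and 0.07 ± 0.18 under glycine (difference 1.89 ± 0.25, adjusted p = 0.0021). Igha differed by 8.23 and 1.62 (difference 6.62 ± 0.44, adjusted p = 4.04e-06), and Spp1 by 4.99 and 1.63 (adjusted p = 0.002). Iigp1 fell under saline and rose under glycine (−1.69 and 1.89, adjusted p = 2.28e-05). For Ncf4 (2.77 and 2.12), H2-Aa (1.74 and 0.96), Pdpn (−2.92 and −2.38) and Cilp (−2.34 and −2.63) the difference between treatments did not pass, with adjusted p from 0.121 to 0.824.

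**Figure D5:**
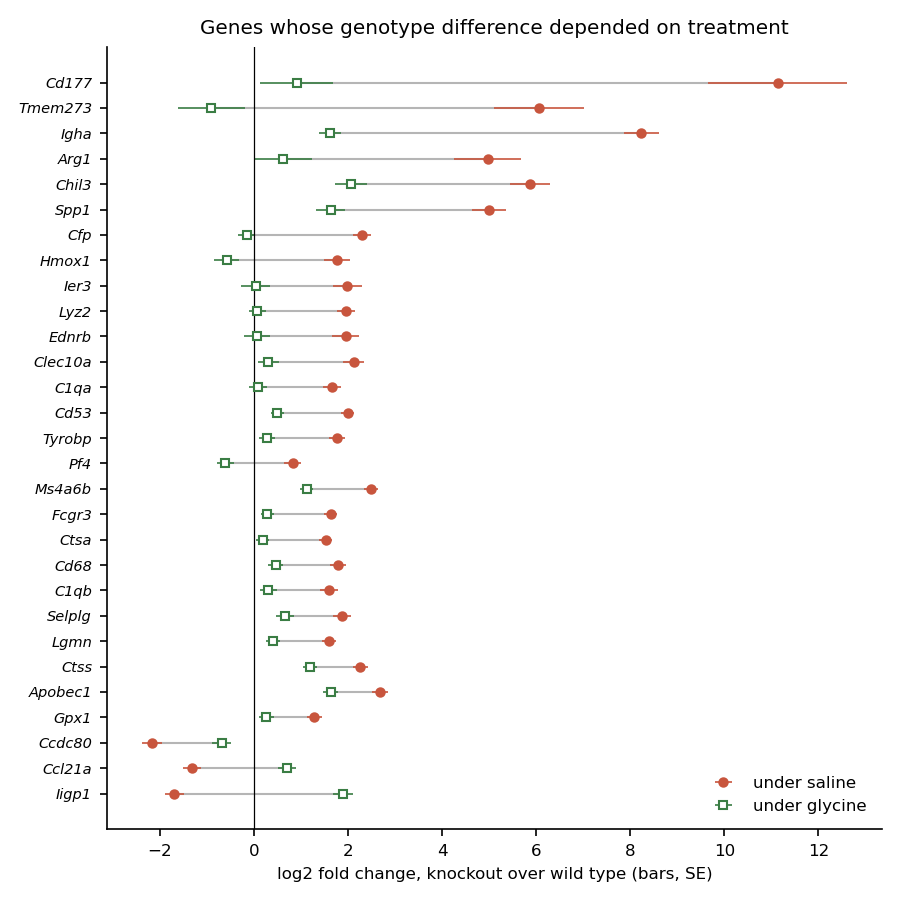
Log2 fold change, knockout over wild type, under saline (filled circles) and under glycine (open squares) for the 29 named genes whose genotype difference depended on treatment, with SE bars. In 26 genes the saline point lies to the right of the glycine point, and in Iigp1, Ccl21a and Ccdc80 to the left. The genes were named by their saline results, which enter the difference. The fitted value of Cd177 under saline rests on wild-type counts of 0.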

How the data were processed

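mRNA captured on beads from cells labelled aortic endothelial was sequenced on an Illumina NovaSeq, per the labels. The submitters' processing notes name Bowtie2 2.2.8, RSEM, HISAT2 2.1.0 and StringTie 1.3.1 without their order; the genome build is not given in the sources used here. The authors deposited 1 table of 22013 genes with an estimated count (10.4% of values not whole) and a deposited FPKM value per library, the latter scaled by the authors for gene length and depth. Estimated counts were rounded. The table has 112 entries with an identifier and no symbol, at most 0.0124% of any library, and they were kept under the identifier. Genes were kept by filterByExpr, scaled by TMM and tested with the edgeR 4.0.16 quasi-likelihood test (robust) in 1 model of 4 groups, with Benjamini-Hochberg adjustment over 13928 genes in R 4.3.3. Rose, fell, higher and lower mean an adjusted p below 0.05. CPM are counts scaled by TMM library size; values are given in the order of libraries 1 to 3 and fold changes are edgeR's with their SE. The floor for a group at 0 is 3 counts per library and covers counting error only. Chromosome order and current names came from GENCODE release 21 for mouse.

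Alternatives were DESeq2 1.42.0, size factors, both filters, limma 3.58.1 on log2 FPKM, other sets of libraries, a fold bound and the replicate block. The 46 gene lists, 20 further families and the comparison were chosen with earlier results of these data known. Lists are described by counts and medians without a test. The 20 further families were assembled after the values had been seen, so their counts of called genes are a description only. Named genes are Glra2, Nos3, Cdh5 and Pecam1, the 12 largest rises and falls and 12 smallest p-values (at least 5 CPM in the higher group, groups apart, no predicted locus or V, D or J segment), up to 4 per list by adjusted p, all immunoglobulin constant regions and called neighbours of Glra2. Some genes that meet this rule are not reported here. Further list members are named as examples chosen after their values were seen. The tests were also run on simulated counts with the same spread set for every gene and group. That setting differs from these libraries, so it does not check the calls made here.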

Additional observations from a re-analysis of the deposited data

Results flagged for a closer look

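The genotype difference depended on the treatment in 156 genes, of which 29 are among the genes named for the saline comparison. Values are the log2 fold change of knockout over wild type under saline minus that under glycine, each with an adjusted p below 0.05 in the edgeR fit. Negative values were found for Iigp1 (−3.59), an interferon-induced GTPase, Ccl21a (−2.01), a lymphatic chemokine, and Ccdc80 (−1.49), a fibroblast gene. Among macrophage and monocyte genes the values were 1.89 for Lyz2, 1.35 for Fcgr3, 1.33 for Cd68, 1.48 for Tyrobp, 1.82 for Clec10a, 3.81 for Chil3 and 4.35 for Arg1. Complement genes had 2.46 for Cfp, 1.56 for C1qa and 1.29 for C1qb. Lysosomal genes had 1.07 for Ctss, 1.19 for Lgmn and 1.34 for Ctsa. Other leukocyte genes had 1.5 for Cd53, 1.37 for Ms4a6b, 1.05 for Apobec1, 1.21 for Selplg, 1.43 for Pf4 and 6.62 for Igha. Stress and vascular genes had 2.35 for Hmox1, 1.02 for Gpx1, 1.95 for Ier3 and 1.89 for Ednrb. Spp1 had 3.37 and Tmem273 6.96, the latter over 5 wild-type counts. The value of Cd177 (10.23) rests on wild-type saline libraries at 0 counts and is no bound. The labels give knockout glycine 5 a dose of 80 mg/kg/day where the other glycine libraries have 800, and its part in these differences was not tested beyond leaving it out.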

How the results depend on the processing

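Of 1573 genes called, knockout against wild type under saline (841 higher, 732 lower), 738 passed with a fold bound of 1.5 (431 higher, 307 lower). On FPKM the lower genes numbered 358 with a pseudocount of 1, 344 with 0.1 and 271 without a filter. Leaving out 1 saline library gave 1016 to 1491 calls, 562 to 842 higher and 454 to 649 lower, with knockout saline 2 giving the fewest. Same-numbered libraries did not deviate together (correlations −0.0339, 0.0194 and −0.00815), and with the replicate number as a block in the 6 saline libraries 1046 genes passed (617 higher, 429 lower). Size factors, the filters and leaving out mitochondrial and haemoglobin genes kept 96.9 to 99.6% of the calls, and DESeq2 gave 1156 higher and 1051 lower. In none of these settings did a called gene change sign. The count of genes whose genotype difference depended on treatment was 509 with DESeq2 and 60 to 338 with 1 of the 12 libraries left out. The cause of these shifts was not tested. Of 154 called named genes, 126 to 144 kept their call with 1 saline library left out, 132 on FPKM and 115 with the fold bound. Depth limits low genes: 3 counts equal 0.118 to 0.279 CPM in the saline libraries.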

Other observations

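In 7 genes the calls had opposite directions under saline and under glycine. Of these, 4 are interferon-inducible GTPases that restrict intracellular pathogens, lower in knockout under saline and higher under glycine: Iigp1 (−1.69 and 1.89, log2 fold changes), Tgtp1 (−1.85 and 1.45), Gbp6 (−1.52 and 2.05) and Gbp4 (−1.30 and 1.58). The remaining 3 were higher under saline and lower under glycine, namely the endocytic adaptor Dab2 (1.38 and −0.78), the copper pump Atp7a (0.89 and −1.08) and the membrane protein Serinc3 (0.61 and −0.73). The difference between treatments passed in all 7, with adjusted p from 2.28e-05 to 0.0207. Gbp4 lost its saline call without knockout saline 3 (adjusted p = 0.105) or wild-type saline 1 or 2, and neither Gbp4 nor Gbp6 passed under saline on FPKM.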
